A study of Mus musculus with 6 samples.

Results

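The 64 genes described here are those of the deposited count table whose symbols belong to families known from cell division, DNA replication and DNA repair. They were chosen by the letters of their symbols: the Mcm, Orc, Cdc and Cdk families with the Cdkn inhibitors, the cyclins, E2F factors, clamp loader, DNA polymerase and ligase genes, the Cenp, Aurk and Bub genes, condensins, the anaphase-promoting complex, and the Rad, Fanconi, Brca, Xrcc and mismatch repair genes, together with Nusap1. They make up 64 of the table's 4162 genes. The mouse annotation has 227 protein-coding genes with such symbols, and those without a row, among them Mcm2 to Mcm7, Ccna2, Ccnb2, Ccnd1 to Ccnd3, Ccne2, Cdk2, Cdk4, E2f1, Cdc6, Cdc45 and Brca2, were not analysed here. RNA sequencing was run on CD4+ T cells from 3 B6.UTX TCD mice, which lack the histone demethylase UTX specifically in T cells, and from 3 B6.WT mice. Cells of both genotypes were isolated as naive CD4+ T cells from spleen with magnetic beads and were then given plate-bound anti-CD3 together with soluble anti-CD28 for 48 h. Nothing in the sources used here names the Cre driver, the deleted exons, or the age or sex of the mice.

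Resting naive T cells sit outside the cell cycle, and signals through the T cell receptor and CD28 start rapid division. D-type cyclins with Cdk4 and Cdk6, and later cyclin E with Cdk2, phosphorylate the retinoblastoma protein and release E2F transcription factors, which switch on genes for DNA synthesis. The INK4 proteins block Cdk4 and Cdk6, and the Cip/Kip proteins block cyclin E and cyclin A kinases. The origin recognition complex and MCM helicase mark and open replication origins, cyclin B with Cdk1 drives mitosis, and repair pathways correct mispairs, bulky lesions and breaks that arise as DNA is copied. UTX, encoded by Kdm6a, removes methyl groups from lysine 27 of histone H3.

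Kdm6a itself had 188, 207 and 179 CPM (counts per gene scaled by library size) in UTX TCD libraries 1, 2 and 3, against 286, 281 and 281 CPM in WT libraries 1, 2 and 3. All UTX TCD libraries lay below all WT libraries, with a log2 fold change of -0.56 ± 0.09 (SE) and an edgeR adjusted p of 0.0029. The adjusted p comes from edgeR's quasi-likelihood test with Benjamini-Hochberg adjustment over all tested genes. Log2 fold changes, UTX TCD over WT, are given ± their standard error, and a gene is called at an adjusted p under 0.05. Column totals ran from 8363326 to 10288306 counts, and the members held 1.6% to 1.7% of them. The rows appear to have been selected on the genotype difference, since only 20 of 4118 tested genes had a log2 fold change within 0.1 of 0, against 1019 between -0.4 and -0.2. A CPM is therefore a share of the listed genes' counts only, and the adjustment counts too few tests. UTX TCD libraries varied more than WT libraries, with a biological coefficient of variation of 22.3% against 8%. Of 13 T cell marker genes 4 had rows, and among them Thy1 had 42.9, 77.6 and 49.9 CPM in UTX TCD libraries, against 887, 718 and 819.9 CPM in WT libraries. Of the other 3, Cd28 and Bcl11b were called higher in UTX TCD cells, with log2 fold changes of 0.83 ± 0.11 and 0.53 ± 0.07, and Lck, at -0.13 ± 0.07, was not called. Lck passed without UTX TCD replicate 2 (log2 fold change -0.13). Of the CD8 T cell markers, Cd8b1 had 31.4, 56.2 and 40.8 CPM in UTX TCD libraries, against 11.6, 14.5 and 12.8 CPM in WT libraries, and Cd8a was not analysed here. Summed CPM of the 3 listed NK cell markers with rows, of 6, ran from 40.5 to 71.7 in UTX TCD libraries and from 79.7 to 139.6 in WT libraries. These markers differed in direction, with log2 fold changes of -2.02 ± 0.21 for Nkg7, called lower, 1.40 ± 0.36 for Klrd1, called higher, and 0.13 ± 0.41 for Eomes, not called. The Klrd1 call was lost without WT replicate 1 or 2 (log2 fold changes 1.24 and 1.34). Xbp1, of 5 plasma cell markers, ranged from 388 to 475 CPM in UTX TCD libraries and from 250.1 to 292.7 CPM in WT libraries. Pecam1, of 6 stromal and endothelial markers, ranged from 206.3 to 368.9 CPM in UTX TCD libraries and from 113.2 to 138.4 CPM in WT libraries. The B cell, myeloid, granulocyte and erythroid markers were not analysed here. The part of other cell types in the results below was not tested, and in bulk RNA fewer cells of a type and less RNA per cell cannot be told apart.

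The Cdk inhibitor genes Cdkn2c and Cdkn1b were more than 2-fold higher in UTX TCD cells, and the G1/S cyclin Ccne1 was lower. Replication origin genes were slightly lower where they passed the test, and 6 of 8 centromere and spindle genes with a row were higher. In all, 23 of the 64 members (35.9%) passed the edgeR threshold with higher levels in UTX TCD cells, against 41.1% of all tested genes, and 16 (25%) were called lower, against 27% of all tested genes. The other 25 did not pass, 23 of them with a negative and 2 with a positive log2 fold change. Genes that did not pass were mostly negative in the whole table too, 1090 of 1315, with 225 positive. The shares of members called higher and lower are near or below those of the whole table, so that the counts by themselves are not a result about the members. All 64 passed the filter on low counts. The members' median log2 fold change was -0.16, against -0.15 over all tested genes, and the median of the absolute values was 0.31 in members, against 0.45 over all. Members called and at least 2-fold higher in UTX TCD cells numbered 5 of 64, namely Cdkn2c, Cdkn1b, Ccng2, Cdc42bpb and Cdc42bpg. Among all tested genes, 530 of 4118 were called at least 2-fold higher. Those called at least 2-fold lower numbered 0 members and 273 of all tested genes.

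The number of calls changed when a library was left out, in members and in the whole table. Over all tested genes, 1692 were called higher and 1111 lower with all 6 libraries. The higher and lower calls over all tested genes were 812 and 402 without WT replicate 1, and 730 and 351 without WT replicate 2. They were 1195 and 544 without WT replicate 3. When WT replicate 1 was dropped, 12 members were called higher and 2 lower in UTX TCD cells. The higher and lower calls were 10 and 3 when WT replicate 2 was dropped, and 17 and 2 when WT replicate 3 was dropped. Dropping UTX TCD replicate 3 left 19 higher and 10 lower. The counts were 25 and 20 when UTX TCD replicate 1 was dropped, and 23 and 20 when UTX TCD replicate 2 was dropped. With any single library left out, 11 members (17.2%) kept their call, against 24.1% of all tested genes. These 11 are Cdkn2c, Cdkn1b, Cdc25b, Cdk6, Nusap1, Ccng2, Cdk19, Cdc42bpb and Cdc42bpg, all higher in UTX TCD cells, and Ccne1 and Cdc14a, both lower. The sign of the fold change was the same for all 64 members in each of these leave-outs. The lower calls also depended on the scaling between libraries. With upper-quartile scaling 5 of the 16 stayed, those of Ccne1, Ccnb1, Cdc14a, Pole3 and Cdk5rap1. With RLE size factors Cdk1, Cdc25a, Cdk7, Cenpw, E2f4, E2f5 and Cdc34 lost their calls, and with scaling centred on the gap in fold changes 29 members were lower and Cenpf lost its higher call. Of the members' calls, 59% were higher with TMM scaling, 71.9% with RLE size factors, 82.8% with upper-quartile scaling and 43.1% when the gap was centred. With all 21951 annotated protein-coding genes counted as tests, the 11 members above and E2f2 were left. Libraries of both genotypes did not overlap in CPM for 55 members (85.9%), against 85.8% of all tested genes. A lack of overlap, given for single genes here, was thus the usual case in this table.

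**Figure D1:**
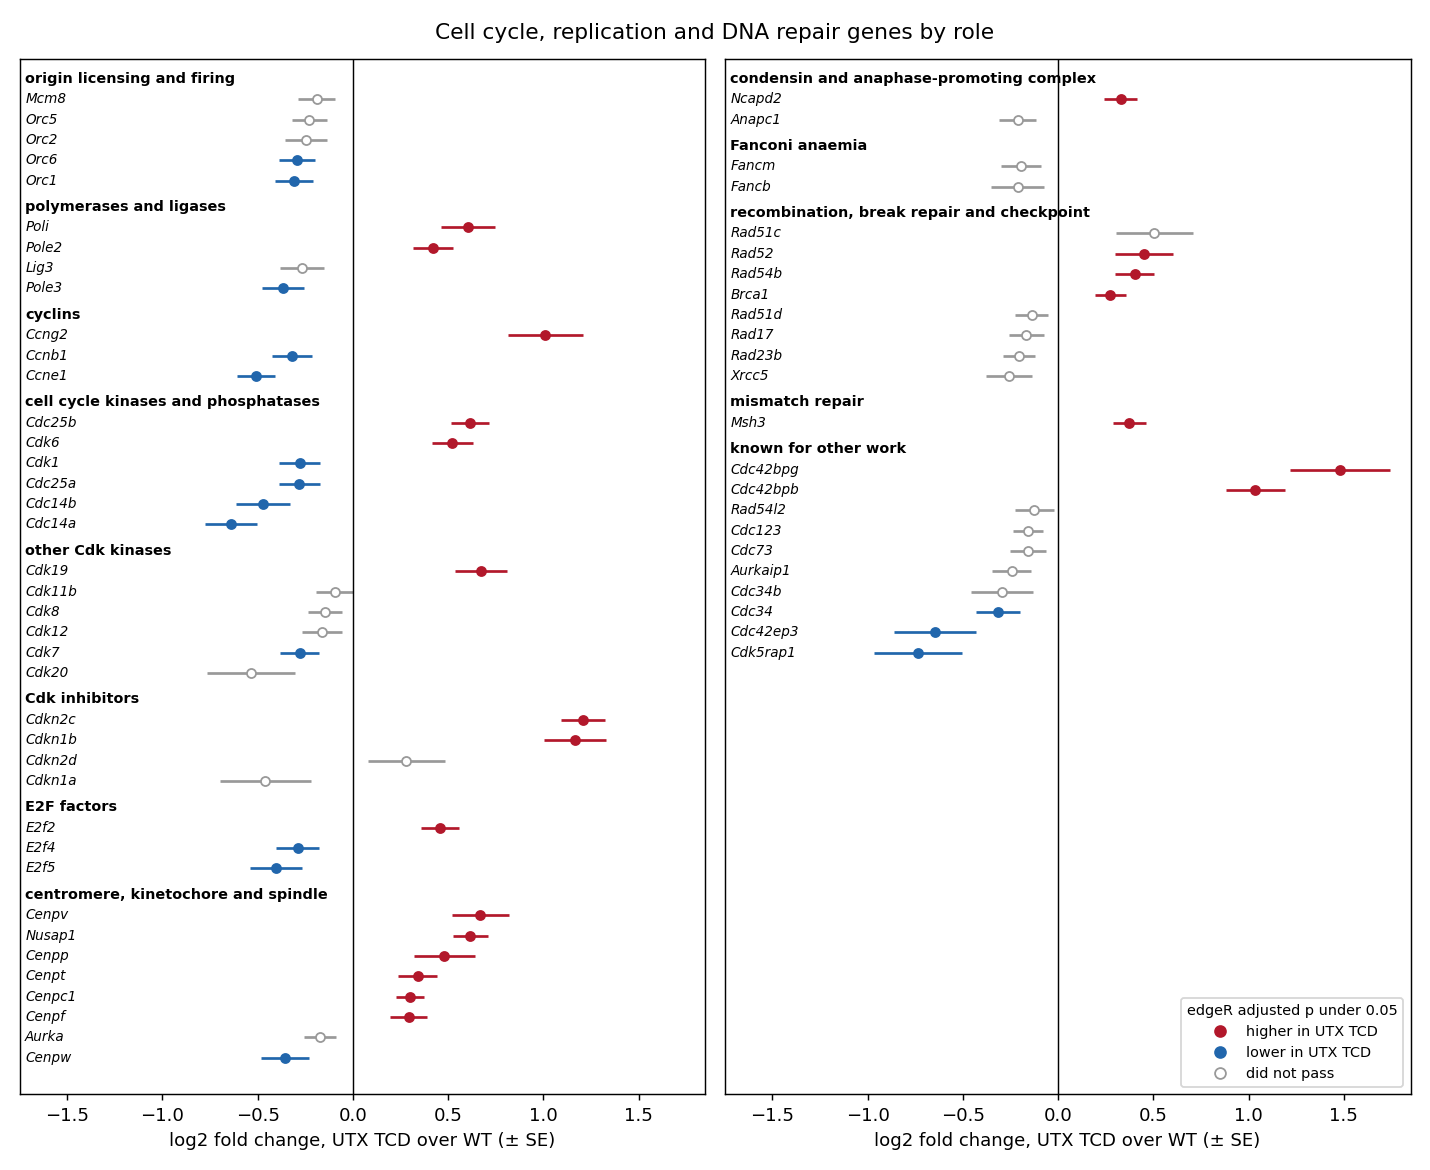
Log2 fold change of the members shown, UTX TCD over WT, with its standard error, in 13 role groups. Filled points passed an edgeR adjusted p of 0.05, and Cdkn2c at 1.21 and Cdc42bpg at 1.48 lie farthest to the right.

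**Figure D2:**
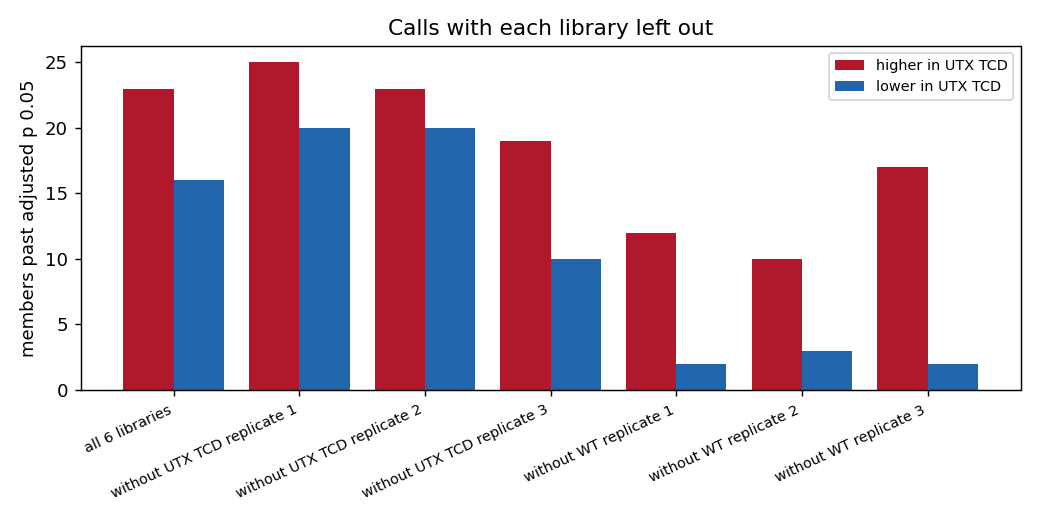
Number of members called higher and lower in UTX TCD cells with all 6 libraries and with each left out. The lower calls number 16 with all libraries and 2, 3 and 2 without WT replicate 1, 2 and 3.

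Of the 4 Cdk inhibitor genes, 2 rose and 2 did not pass the test. Over all tested genes, 41.1% were called higher and 31.9% did not pass. Cdkn2c encodes p18, an INK4 inhibitor of Cdk4 and Cdk6, and had 157, 156 and 184 CPM in UTX TCD libraries 1, 2 and 3, against 68.7, 65.9 and 80.2 CPM in WT libraries 1, 2 and 3. The lowest UTX TCD library was well above the highest WT library, for a log2 fold change of 1.21 ± 0.12 (SE) and an edgeR adjusted p of 6.9e-04. Cdkn1b encodes p27, the Cip/Kip inhibitor that is abundant in resting T cells and declines after stimulation. It had 193, 298 and 219.7 CPM in UTX TCD libraries, against 101, 101 and 114 CPM in WT libraries, with replicate 2 the highest of the UTX TCD libraries. Its log2 fold change was 1.17 ± 0.16 (SE), with an edgeR adjusted p of 0.0023, a 2.25-fold difference. Cdkn1a, which encodes the p53 target p21, had 307, 291 and 154 CPM in UTX TCD libraries, against 353, 373 and 307 CPM in WT libraries. UTX TCD replicate 3 lay far below the other 5 libraries, and the log2 fold change was -0.46 ± 0.24 (SE), with an edgeR adjusted p of 0.11, so that Cdkn1a was not called. Cdkn2d, encoding the INK4 protein p19, had 55.2, 69.4 and 94.7 CPM in UTX TCD libraries and 64, 65.3 and 51.4 CPM in WT libraries, which overlapped. Cdkn2d passed without UTX TCD replicate 1 (log2 fold change 0.45).

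Of the 3 cyclins with a row, 1 was called higher and 2 lower, where 41.1% of all tested genes were called higher and 27% lower. Ccne1, the cyclin E1 gene whose product activates Cdk2 at the entry into S phase, had 211, 170.3 and 203 CPM in UTX TCD libraries 1, 2 and 3, against 272, 274 and 285 CPM in WT libraries 1, 2 and 3. It fell in UTX TCD cells, to a mean of 195 ± 21.7 CPM, against 277 ± 6.78 CPM in WT cells (SD, n = 3 each). Its log2 fold change was -0.51 ± 0.10 (SE), with an edgeR adjusted p of 0.0066, and all UTX TCD libraries lay below all WT libraries. Ccng2 encodes cyclin G2, an atypical cyclin known for slowing the cycle rather than driving it. It had 108, 182 and 133 CPM in UTX TCD libraries, against 61.9, 68.7 and 79.1 CPM in WT libraries, and rose with a log2 fold change of 1.01 ± 0.20 (SE) and an edgeR adjusted p of 0.006. UTX TCD replicate 1 was the lowest of its group and still above every WT library, and replicate 2 was the highest of the 6. Ccnb1, the cyclin B1 gene needed for mitosis with Cdk1, had 223, 175 and 206 CPM in UTX TCD libraries, against 257, 257 and 240.4 CPM in WT libraries. Its log2 fold change was -0.32 ± 0.10 (SE), with an edgeR adjusted p of 0.03, and the UTX TCD libraries, replicate 2 lowest, did not overlap WT libraries. The Ccnb1 call was lost without WT replicate 1, 2 or 3 or UTX TCD replicate 3 (log2 fold changes -0.31, -0.31, -0.36 and -0.34).

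**Figure D3:**
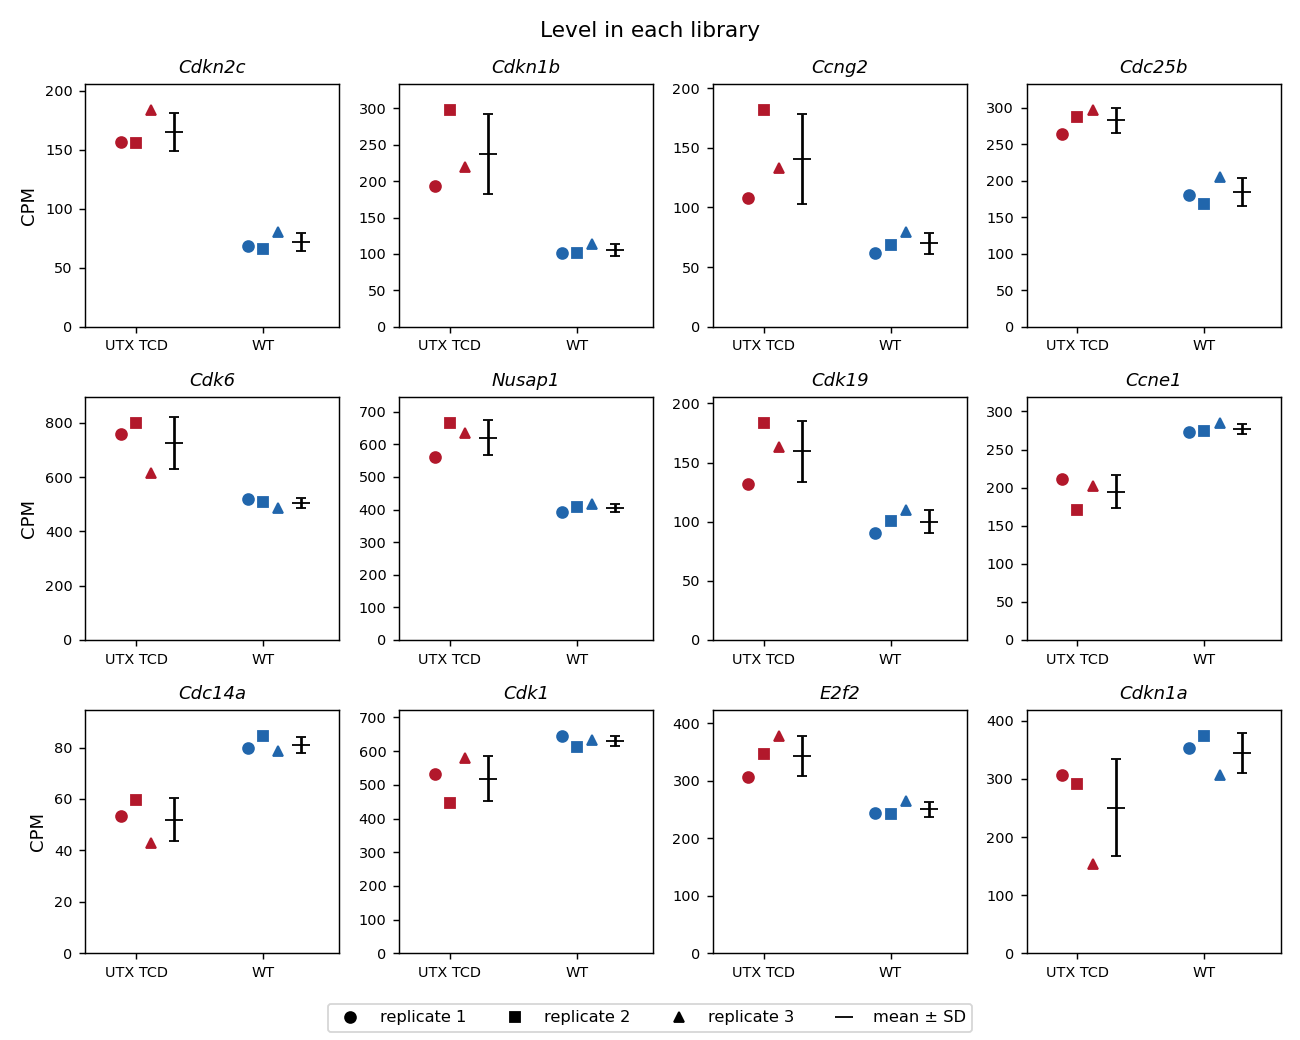
CPM of single members in each of the 3 UTX TCD and 3 WT libraries, with each group's mean ± SD (bars, n = 3). The UTX TCD points lie above all WT points for Cdkn2c, Cdkn1b and Ccng2 and beneath all WT points for Ccne1.

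Cell cycle kinases and the phosphatases that act with them all passed the test, 2 of 6 higher and 4 lower in UTX TCD cells, in a table where 41.1% of tested genes were called higher and 27% lower. Cdk6, a D-type cyclin partner that phosphorylates the retinoblastoma protein in T cells, had 758, 800 and 616 CPM in UTX TCD libraries, against 519, 509.9 and 485 CPM in WT libraries. It rose with a log2 fold change of 0.52 ± 0.11 (SE) and an edgeR adjusted p of 0.008, UTX TCD replicate 3 being the one nearest to the WT libraries. Cdc25b encodes a phosphatase that removes inhibitory phosphates from Cdk1. It rose too, with 263, 287 and 297 CPM in UTX TCD libraries, against 181, 168 and 205 CPM in WT libraries, and a log2 fold change of 0.61 ± 0.10 (SE) and an edgeR adjusted p of 0.0038. Its relative Cdc25a, which activates Cdk2 and Cdk1, went the other way, with 426, 336 and 406 CPM in UTX TCD libraries, against 498, 468 and 454 CPM in WT libraries. All UTX TCD values of Cdc25a were below the WT values, replicate 2 by the widest margin, and the log2 fold change was -0.28 ± 0.11 (SE), with an edgeR adjusted p of 0.046. Cdk1, the kinase of mitosis, had 532, 446 and 579 CPM in UTX TCD libraries, against 644, 613 and 632 CPM in WT libraries, with a log2 fold change of -0.28 ± 0.11 (SE) and an edgeR adjusted p of 0.047. UTX TCD replicate 3 was the one nearest to WT. The Cdc25a call was lost without WT replicate 1, 2 or 3 or UTX TCD replicate 3 (log2 fold changes -0.25, -0.29, -0.31 and -0.31). The Cdk1 call was lost without WT replicate 1, 2 or 3 or UTX TCD replicate 1 (log2 fold changes -0.27, -0.30, -0.28 and -0.29).

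Cdc14a and Cdc14b encode phosphatases named for the budding yeast protein that drives exit from mitosis. Cdc14a had 53.4, 59.5 and 43 CPM in UTX TCD libraries, against 79.8, 84.4 and 78.8 CPM in WT libraries, and fell with a log2 fold change of -0.64 ± 0.14 (SE) and an edgeR adjusted p of 0.008. Cdc14b had 44.5, 51.9 and 37.4 CPM in UTX TCD libraries, against 59.2, 62.5 and 63.9 CPM in WT libraries, and a log2 fold change of -0.47 ± 0.14 (SE) and an edgeR adjusted p of 0.023. The libraries of the genotypes did not overlap for either gene, nor for 85.8% of all tested genes, and UTX TCD replicate 3 was lowest for both. The Cdc14b call was lost without WT replicate 1, 2 or 3 or UTX TCD replicate 3 (log2 fold changes -0.51, -0.47, -0.45 and -0.36). Of 6 other Cdk kinases, Cdk19, one of the Mediator complex kinases, rose, with 132, 184 and 163 CPM in UTX TCD libraries, against 90.2, 100.4 and 109.5 CPM in WT libraries, and a log2 fold change of 0.67 ± 0.14 (SE) and an edgeR adjusted p of 0.0074. Its paralog Cdk8 had a log2 fold change of -0.15 ± 0.09 and did not pass. Cdk7, which activates other Cdks and works in the transcription factor TFIIH, fell, with 144, 122 and 149.5 CPM in UTX TCD libraries, against 171, 172 and 161 CPM in WT libraries. Its log2 fold change was -0.28 ± 0.10 (SE), with an edgeR adjusted p of 0.038. The Cdk7 call was lost without WT replicate 1, 2 or 3 (log2 fold changes -0.27, -0.27 and -0.32). Cdk11b, Cdk12 and Cdk20 had log2 fold changes of -0.10 ± 0.10, -0.16 ± 0.10 and -0.53 ± 0.23 and were not called. Cdk12 passed without UTX TCD replicate 1 (log2 fold change -0.25).

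All 3 E2F factors with a row passed the test, 1 higher and 2 lower in UTX TCD cells, in a table where 31.9% of tested genes did not pass. E2f2, an activator of S phase genes, had 307, 346 and 377 CPM in UTX TCD libraries 1, 2 and 3, against 244, 242 and 265 CPM in WT libraries 1, 2 and 3, and rose with a log2 fold change of 0.46 ± 0.10 (SE) and an edgeR adjusted p of 0.0088. The repressive factors, which act with the pocket proteins related to Rb, were lower in UTX TCD cells. E2f4 had 649.6, 505 and 644 CPM in UTX TCD libraries, against 766, 700.4 and 733 CPM in WT libraries, with a log2 fold change of -0.29 ± 0.11 (SE) and an edgeR adjusted p of 0.0499. E2f5 had 28.3, 24.6 and 26.6 CPM in UTX TCD libraries, against 33.6, 36.1 and 35.4 CPM in WT libraries, with a log2 fold change of -0.40 ± 0.14 (SE) and an edgeR adjusted p of 0.032. None of the 3 genes had overlapping groups, where 85.8% of all tested genes had none. UTX TCD replicate 2 was the lowest library for both repressive factors. None of the calls of this group was kept in every leave-out. The E2f2 call was lost without WT replicate 2 (log2 fold change 0.43). The calls of E2f4 and E2f5 were lost without WT replicate 1, 2 or 3 or UTX TCD replicate 3 (log2 fold changes from -0.44 to -0.26).

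The members' promoters, taken from RefSeq (GRCm38.p6) as 250 bases before to 50 bases after each gene's start, were searched on both strands for the E2F words TTTGGCGC, TTTCCCGC, TTTCGCGC and TTTGCCGC. Overlapping words were counted once per gene. Of the 52 members with a promoter, 9 (17.3%) held a word, namely 4 of 18 called higher, 3 of 14 called lower and 2 of 20 not called. The share was 5.03% among genes of the table (162 of 3218) and 2.6% among all 27025 genes with a promoter. The windows of 30 bases below show the word, in capitals, in the 7 members that passed the test, on the gene's strand and 5′ to 3′. The first 3 were called lower and the other 4 higher in UTX TCD cells, and the word TTTGGCGC stood in both sets.
Cdk1 at chr10:69353025-69353054, minus strand: tttccgctcccTTTCGCGCtctgcgctccc
Cdc25a at chr9:109875501-109875530, plus strand: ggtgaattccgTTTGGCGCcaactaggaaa
Orc1 at chr4:108579416-108579445, plus strand: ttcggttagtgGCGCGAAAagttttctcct
E2f2 at chr4:136172294-136172323, plus strand: cgaatttggcggcatatagTTTGGCGCtaa
Pole2 at chr12:69228162-69228191, minus strand: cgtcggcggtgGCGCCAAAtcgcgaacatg
Ncapd2 at chr6:125191576-125191605, minus strand: ccatctcgttgTTTGGCGCgtatcctgccc
Msh3 at chr13:92355187-92355216, minus strand: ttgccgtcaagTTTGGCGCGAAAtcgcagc
In Msh3 a pair of words on opposite strands overlap, and in Orc1 and Pole2 the word reads on the opposite strand. Counted from the start base at 0, the word began at -131 in Cdk1, -67 in Cdc25a, -27 in Orc1 and -8 in Ncapd2, and at 10 in Pole2 and 39 in E2f2. The mitotic CHR words TTTGAA and TTCGAA were in 9 of the 52 promoters (17.3%), against 16.8% of the table's genes and 21.7% of all. A match describes letters in the window and is not evidence that a factor binds there.

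Genes of the replication origin had small differences, all with negative log2 fold changes. Orc1, the largest subunit of the origin recognition complex, had 125, 104 and 109 CPM in UTX TCD libraries, against 144, 131 and 143 CPM in WT libraries, and a log2 fold change of -0.31 ± 0.10 (SE) and an edgeR adjusted p of 0.029. Orc6, the smallest subunit, had 211, 177 and 201 CPM in UTX TCD libraries, against 253, 238 and 231 CPM in WT libraries, and a log2 fold change of -0.29 ± 0.09 (SE) and an edgeR adjusted p of 0.028. The groups did not overlap for Orc1 or Orc6, nor for 85.8% of all tested genes, and UTX TCD replicate 2 was lowest for both genes. Orc2, Orc5 and Mcm8, an MCM relative that acts in recombination, had log2 fold changes of -0.25 ± 0.11, -0.23 ± 0.09 and -0.19 ± 0.10 and were not called. The Orc1 call was lost without WT replicate 1, 2 or 3 or UTX TCD replicate 3 (log2 fold changes -0.29, -0.35, -0.30 and -0.29). The Orc6 call was lost without WT replicate 1, 2 or 3 (log2 fold changes -0.26, -0.31 and -0.33). Orc2 passed without UTX TCD replicate 1 (log2 fold change -0.31). Orc1 and Orc2 share 376 and 1150 exon bases with genes on the opposite strand, and since the strand setting of the counting is not given, reads of such neighbours could not be separated from theirs.

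Subunits of DNA polymerase epsilon, which copies the leading strand, moved apart. Pole2, its second subunit, had 98.2, 107 and 117 CPM in UTX TCD libraries, against 76.1, 77.3 and 86.5 CPM in WT libraries, and rose with a log2 fold change of 0.42 ± 0.10 (SE) and an edgeR adjusted p of 0.013. Pole3, a small histone-fold subunit that also works in chromatin remodelling, had 218, 171 and 219 CPM in UTX TCD libraries, against 254, 263 and 267 CPM in WT libraries, and fell with a log2 fold change of -0.37 ± 0.11 (SE) and an edgeR adjusted p of 0.024. Both genes' libraries were fully separated by genotype, like those of 85.8% of all tested genes. Poli, a polymerase that bypasses damaged bases, had 67.4, 95.1 and 75.9 CPM in UTX TCD libraries, against 49.7, 54.1 and 53 CPM in WT libraries, with a log2 fold change of 0.60 ± 0.14 (SE) and an edgeR adjusted p of 0.011. It was highest in UTX TCD replicate 2. Lig3, a ligase of base excision repair and mitochondrial DNA, had a log2 fold change of -0.27 ± 0.12 and was not called; it shares 1826 exon bases with a gene on the opposite strand. The Pole2 call was lost without WT replicate 1 or 2 (log2 fold changes 0.39 and 0.40). The Pole3 call was lost without WT replicate 1, 2 or 3 (log2 fold changes -0.39, -0.37 and -0.35). The Poli call was lost without WT replicate 1 (log2 fold change 0.57). Lig3 passed without UTX TCD replicate 1 or 2 (log2 fold changes -0.34 and -0.16).

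Of the 8 centromere, kinetochore and spindle genes, 6 rose, 1 fell and 1 did not pass, where 41.1% of all tested genes were called higher and 27% lower. Nusap1, which bundles spindle microtubules, had 562, 665 and 635 CPM in UTX TCD libraries, against 391, 407 and 416 CPM in WT libraries, and a log2 fold change of 0.62 ± 0.09 (SE) and an edgeR adjusted p of 0.0027. Every UTX TCD library was above every WT library. Cenpf, a large protein of the outer kinetochore and one of the 5 members with the most CPM, had 783, 640.5 and 749.6 CPM in UTX TCD libraries, against 572, 589 and 612 CPM in WT libraries, and a log2 fold change of 0.29 ± 0.10 (SE) and an edgeR adjusted p of 0.03. Of the inner kinetochore proteins, Cenpc1, Cenpt and Cenpp rose with log2 fold changes of 0.30 ± 0.07, 0.34 ± 0.10 and 0.48 ± 0.16, and Cenpw fell with -0.35 ± 0.12. Cenpv, a centromere-associated protein, rose with a log2 fold change of 0.67 ± 0.15 (SE) and an edgeR adjusted p of 0.01, and its highest library was UTX TCD replicate 1. Aurka, the kinase of the spindle poles, had 275, 244 and 277 CPM in UTX TCD libraries, against 295, 304 and 301 CPM in WT libraries, with a log2 fold change of -0.17 ± 0.08 (SE) and an edgeR adjusted p of 0.085, and was not called although its groups did not overlap. Nusap1 alone kept its call in each leave-out. The higher calls of this group numbered 2 without WT replicate 1, 1 without WT replicate 2, and 4 without either WT replicate 3 or UTX TCD replicate 3. The calls of Cenpf and Cenpp were lost without WT replicate 1, 2 or 3 or UTX TCD replicate 3 (log2 fold changes from 0.27 to 0.52). The calls of Cenpc1 and Cenpt were lost without WT replicate 1 or 2 (log2 fold changes from 0.28 to 0.33). The Cenpv call was lost without WT replicate 2 (log2 fold change 0.61). The Cenpw call was lost without WT replicate 1, 2 or 3 (log2 fold changes -0.34, -0.31 and -0.42). Aurka passed without UTX TCD replicate 2 (log2 fold change -0.13).

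Condensin and the anaphase-promoting complex had 1 gene each with a row. Ncapd2, a subunit of condensin I, which compacts mitotic chromosomes, had the highest CPM of all members, with 1586, 1483 and 1723 CPM in UTX TCD libraries, against 1223, 1269 and 1323 CPM in WT libraries. It rose with a log2 fold change of 0.33 ± 0.09 (SE) and an edgeR adjusted p of 0.016. Anapc1, the scaffold of the ubiquitin ligase that starts anaphase, had 1158, 941 and 1097 CPM in UTX TCD libraries, against 1227, 1265 and 1215 CPM in WT libraries. Its groups did not overlap, but it was not called, since the log2 fold change was -0.21 ± 0.10 (SE), with an edgeR adjusted p of 0.072. The Ncapd2 call was lost without WT replicate 1 or 2 (log2 fold changes 0.30 and 0.32). Anapc1 passed without UTX TCD replicate 1 or 2 (log2 fold changes -0.27 and -0.14).

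DNA repair members included genes of mispair and break repair. Msh3, which recognises loops of mispaired DNA, rose. It had 138, 155 and 143 CPM in UTX TCD libraries, against 117, 107 and 113 CPM in WT libraries, with a log2 fold change of 0.37 ± 0.09 (SE) and an edgeR adjusted p of 0.011. Its groups did not overlap, like those of 85.8% of all tested genes. Among 9 genes of recombination, break repair and checkpoints, Brca1, Rad52 and Rad54b rose and 6 did not pass by edgeR. Brca1, which directs breaks to homologous recombination, had 359, 389 and 384 CPM in UTX TCD libraries, against 303, 306 and 326 CPM in WT libraries, with a log2 fold change of 0.28 ± 0.08 (SE) and an edgeR adjusted p of 0.021. UTX TCD replicate 1 was the one nearest to the WT libraries. Rad52, which anneals single strands, and Rad54b, a motor protein of strand exchange, had log2 fold changes of 0.45 ± 0.15 and 0.40 ± 0.10. Rad54b shares 2068 exon bases on the same strand with Fsbp, so its counts are uncertain. The Msh3 call was lost without WT replicate 2 (log2 fold change 0.34). The Brca1 call was lost without WT replicate 1, 2 or 3 or UTX TCD replicate 3 (log2 fold changes 0.25, 0.26, 0.30 and 0.26). The calls of Rad52 and Rad54b were lost without WT replicate 1, 2 or 3 (log2 fold changes from 0.39 to 0.49).

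The repair genes that did not pass had log2 fold changes from -0.26 to 0.51. Rad23b, a partner of the lesion sensor of nucleotide excision repair and among the 5 members with the most CPM, had 1096, 940.2 and 978 CPM in UTX TCD libraries, against 1179, 1148 and 1145 CPM in WT libraries. Its UTX TCD libraries all lay below the WT libraries, and its log2 fold change was -0.20 ± 0.09 (SE), with an edgeR adjusted p of 0.061. Rad51c, a recombination protein, had 18, 20.2 and 21.4 CPM in UTX TCD libraries and 11.5, 13.8 and 16.7 CPM in WT libraries, with a log2 fold change of 0.51 ± 0.20 (SE) and an edgeR adjusted p of 0.054. Rad51d, Rad17, which loads the checkpoint clamp, and Xrcc5, the larger Ku subunit of end joining, had log2 fold changes of -0.14 ± 0.09, -0.17 ± 0.09 and -0.26 ± 0.12. The Fanconi anaemia genes Fancm and Fancb, with -0.20 ± 0.11 and -0.21 ± 0.14, were not called by edgeR, DESeq2 or limma-voom, and 0 of the 2 had an unadjusted edgeR p under 0.05. Rad23b passed without UTX TCD replicate 1 or 2 (log2 fold changes -0.27 and -0.17). Rad51c passed without UTX TCD replicate 1 (log2 fold change 0.58). Rad51c was also called higher by DESeq2 (0.55), by limma-voom (0.53) and by edgeR with upper-quartile scaling (0.58), all as log2 fold changes.

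**Figure D4:**
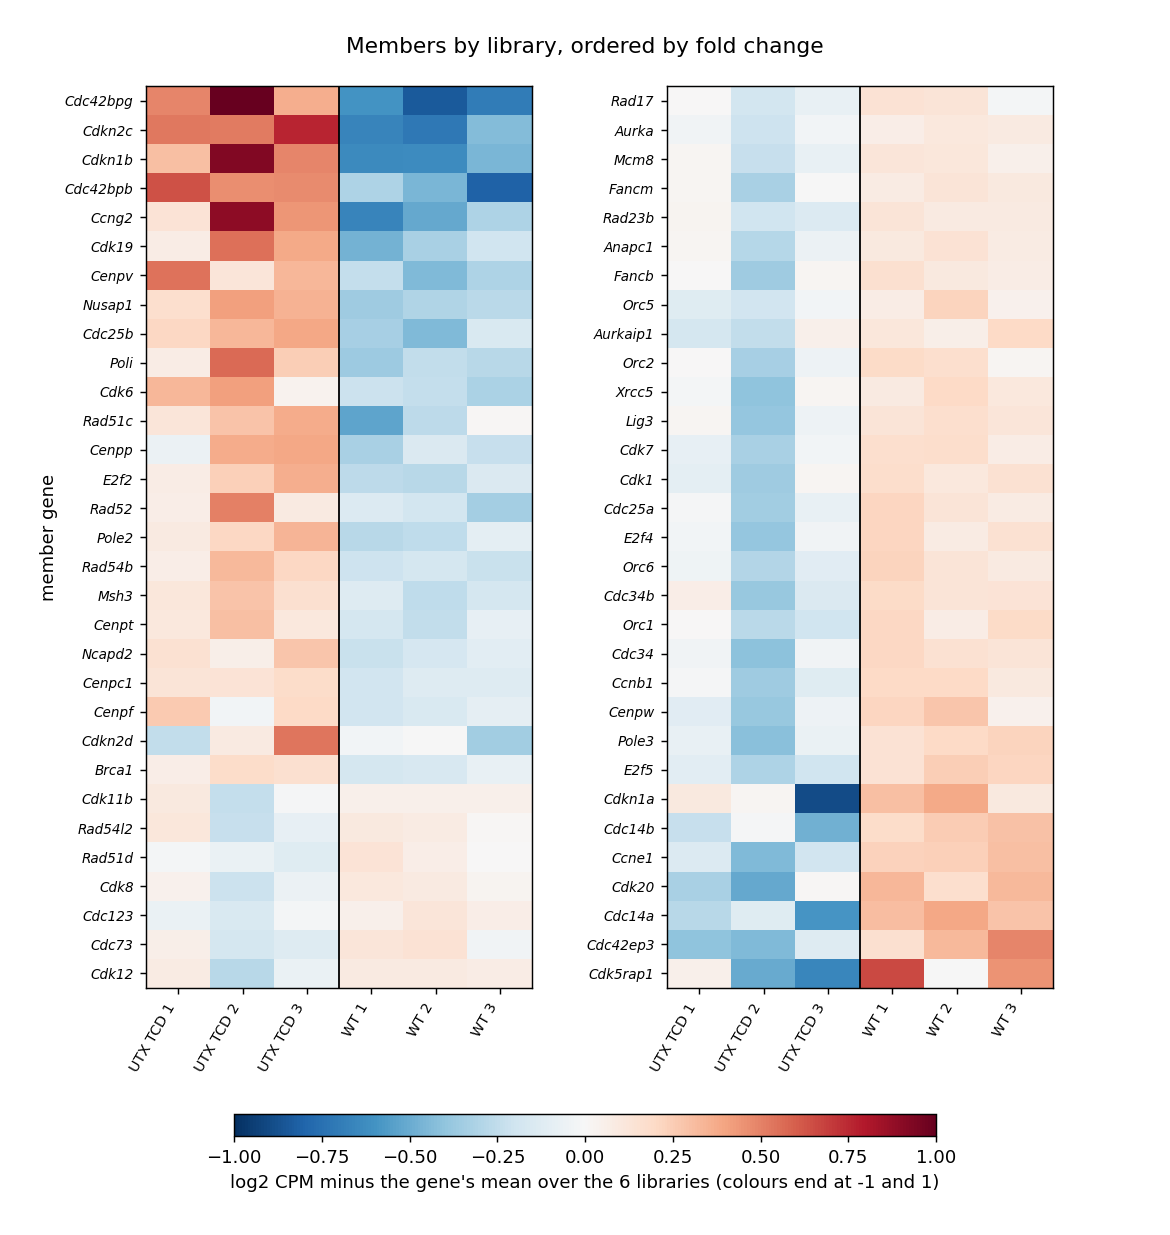
Log2 CPM of the members shown in each library minus its mean over the 6 libraries, UTX TCD libraries left of WT libraries, ordered by fold change. UTX TCD replicate 2 is the bluest column for most genes lower in UTX TCD, being lowest in 34 of the 39 of all 64 members with a negative fold change.

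Some members carry a matching symbol but were grouped by hand as known for other work, and the largest fold changes were among them. Cdc42bpg and Cdc42bpb encode MRCK kinases, which act below the GTPase Cdc42 on the cytoskeleton. Cdc42bpg, at low counts, had 34.8, 60.7 and 31.9 CPM in UTX TCD libraries, against 16.4, 13.9 and 15.3 CPM in WT libraries, with a log2 fold change of 1.48 ± 0.26 (SE) and an edgeR adjusted p of 0.0049. Cdc42bpb had 70.1, 62.1 and 62.6 CPM in UTX TCD libraries, against 36.4, 32.9 and 25.8 CPM in WT libraries, with a log2 fold change of 1.03 ± 0.15 (SE) and an edgeR adjusted p of 0.0028, and shares 1013 exon bases with a gene on the opposite strand. For both genes each UTX TCD library was above each WT library, where 85.8% of all tested genes had no overlap in either direction. Other members whose calls held in every leave-out share fewer exon bases with opposite-strand genes, among them Cdk6 with 368, Cdk19 with 268 and Nusap1 with 172. Cdc42ep3, a Cdc42 effector, and Cdk5rap1, which modifies mitochondrial transfer RNA, fell with log2 fold changes of -0.65 ± 0.22 and -0.73 ± 0.23. The groups overlapped for Cdk5rap1, with 52.7, 35.8 and 32.4 CPM in UTX TCD libraries, against 80.5, 50.8 and 69.6 CPM in WT libraries. Cdc34, a ubiquitin-conjugating enzyme of the SCF ligases, is a cell cycle gene too, although it was put in this group. Cdc34 fell with -0.31 ± 0.12, but its related copy Cdc34b had -0.30 ± 0.16 without passing. Reads of the copies may be split between them. Aurkaip1, Cdc123, Cdc73 and Rad54l2 were not called, at log2 fold changes from -0.24 to -0.12. The Cdc42ep3 call was lost without WT replicate 1, 2 or 3 or UTX TCD replicate 1 (log2 fold changes -0.73, -0.65, -0.56 and -0.60). The Cdk5rap1 call was lost without WT replicate 1 or 3 or UTX TCD replicate 2 or 3 (log2 fold changes -0.58, -0.71, -0.67 and -0.60). The Cdc34 call was lost without WT replicate 1, 2 or 3 (log2 fold changes -0.30, -0.33 and -0.33). Cdc34b passed without UTX TCD replicate 1 (log2 fold change -0.41). Aurkaip1 passed without UTX TCD replicate 3 (log2 fold change -0.34).

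The UTX TCD libraries did not vary alike. Replicate 2 was the lowest of the 6 libraries for 34 of the 39 members with a negative fold change and the highest for 12 of the 25 with a positive one. Replicate 3 was lowest for the other 5 and highest for 10, and replicate 1 was highest for 3. The summed CPM of all members was 16990, 15560 and 16810 in UTX TCD libraries 1, 2 and 3, against 16380, 16330 and 16280 in WT libraries 1, 2 and 3. The summed level thus lay above WT in a pair of UTX TCD libraries and below it in replicate 2. Whether this library's own properties set its values was not tested.

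**Figure D5:**
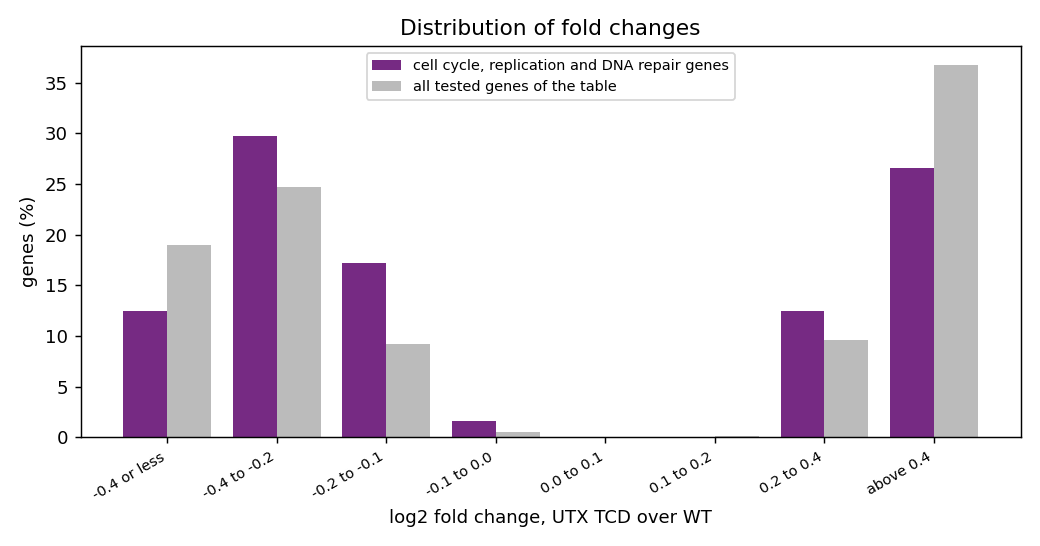
Share of members and of all tested genes in bands of log2 fold change, UTX TCD over WT. Members fill the bands from -0.4 to -0.1 more than all genes do (29.7% and 17.2%, against 24.7% and 9.23%), and also the band from 0.2 to 0.4 (12.5%, against 9.62%). They fill both outermost bands less, and the band around 0 is nearly empty in both.

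Mild differences of both signs were more frequent among members than in the table, and larger ones less frequent. Log2 fold changes between -0.4 and -0.2 were found in 29.7% of members, against 24.7% of all tested genes, and those between -0.2 and -0.1 in 17.2%, against 9.23%. Those between 0.2 and 0.4 were found in 12.5% of members, against 9.62%. Values above 0.4 were found in 26.6% of members, against 36.8% of all tested genes, and values of -0.4 or less in 12.5%, against 19%. These are descriptions of a table that appears selected on the genotype difference, with no test of the shares.

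Levels were compared between genes per kilobase of exon. By CPM per kilobase, E2f4 had 245 in UTX TCD and 299 in WT cells, Ncapd2 had 255 in UTX TCD and 203 in WT cells, Cdc34 had 203 in UTX TCD and 253 in WT cells, Rad23b had 175 in UTX TCD and 202 in WT cells and Nusap1 had 153 in UTX TCD and 99.7 in WT cells, the 5 highest members. Ccne1 had 73.2 in UTX TCD and 104 in WT cells on the same scale, rank 13 of 64. Cdkn1b, at 52.1 in UTX TCD and 23.2 in WT cells, stood at rank 31. The lowest were Cdc42ep3 (3.49 in UTX TCD and 5.47 in WT cells), Rad51c (4.52 in UTX TCD and 3.19 in WT cells) and Cdk20 (1.1 in UTX TCD and 1.59 in WT cells). Among the 5 members whose log2 CPM followed that of Ccne1 most closely over the 6 libraries were E2f5 (Pearson r = 0.983), Pole3 (Pearson r = 0.975), Aurka (Pearson r = 0.962) and Orc6 (Pearson r = 0.952). The points share the same 6 libraries and the same genotype difference, and the correlations are given as a description.

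Genes of the same processes outside the named families were read from lists. The list of Rb, p53 and arrest genes had 13 of 35 genes with a tested row, 11 of them called higher, where 41.1% of all tested genes were, with a median log2 fold change of 0.51, against -0.15 over all tested genes. Neither this list nor the others were tested as a group. Sesn3, a stress-induced protein that restrains growth signalling, had 896, 929 and 711 CPM in UTX TCD libraries, against 415, 398 and 367 CPM in WT libraries, with a log2 fold change of 1.10 ± 0.12 (SE) and an edgeR adjusted p of 0.001. Klf2, a factor of T cell quiescence, had 116, 188 and 209.5 CPM in UTX TCD libraries, against 31.9, 33.1 and 49.8 CPM in WT libraries, with a log2 fold change of 2.16 ± 0.26 (SE) and an edgeR adjusted p of 0.0015. Gadd45g, a growth arrest and damage-induced gene, and Rb1, the retinoblastoma gene itself, rose with log2 fold changes of 1.16 ± 0.17 and 0.46 ± 0.09. For all 4 genes the UTX TCD libraries lay above the WT libraries, where 85.8% of all tested genes had no overlap in either direction. The higher calls of this list numbered 8 or 9 when WT replicate 1 or WT replicate 2 was dropped. Other genes of this list are named after their values were seen. Myb and Tfdp2 were called higher, at log2 fold changes of 1.19 ± 0.27 and 0.46 ± 0.09. Bax and Gadd45b were not called, at -0.195 ± 0.085 and -0.35 ± 0.25. Bax passed without UTX TCD replicate 1 (log2 fold change -0.25) and Gadd45b without UTX TCD replicate 2 (log2 fold change -0.70).

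The DNA damage response list had 14 of 62 genes tested, 10 called higher and 1 lower, against 41.1% and 27% of all tested genes, with a median of 0.38. Ddb2, which senses ultraviolet lesions, had 65.5, 77 and 77 CPM in UTX TCD libraries, against 44.3, 43.6 and 44.6 CPM in WT libraries, with a log2 fold change of 0.73 ± 0.11 (SE) and an edgeR adjusted p of 0.003. Wrn, the helicase of Werner syndrome, Neil3, a glycosylase of oxidised bases, and Rev3l, the catalytic subunit of polymerase zeta, rose with log2 fold changes of 0.56 ± 0.09, 0.73 ± 0.12 and 0.46 ± 0.08. The higher calls numbered 5 without WT replicate 1, and the lower call was lost without WT replicate 1, 2 or 3 while dropping UTX TCD replicate 1 gave 4 lower calls and dropping UTX TCD replicate 2 gave 2. The mitosis and G2 list had 6 of 66 genes tested, 4 called higher, against 41.1% of all tested genes, with a median of 0.28. Its higher calls numbered 0 without WT replicate 1 or 2, and 1 without WT replicate 3 or UTX TCD replicate 3. The S phase list had 10 of 45 genes tested, 3 called higher, a share below the 41.1% of all tested genes, with a median of -0.12. Its higher calls numbered 0 without WT replicate 1 or 2 and 1 without WT replicate 3. Its lower calls numbered 1 when UTX TCD replicate 1 was dropped and 3 when UTX TCD replicate 2 was dropped. The genes of these lists without a row, from 22 of 35 to 60 of 66, were not analysed here.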

How the data were processed

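Gene expression was measured by RNA sequencing of CD4+ T cells from 3 UTX TCD and 3 WT mice, each library from one mouse. The authors deposited unnormalised read counts, whole numbers for each gene, made with FastQC, HISAT2 and HTSeq on genome build mm10, per the submitters' processing notes; versions, annotation and strand setting were not stated there. The table lists 4162 genes, and its members and all gene lists were chosen with earlier results of these data known.

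All rows were fitted with edgeR 4.0.16 in R 4.3.3 (quasi-likelihood F test, TMM scaling, filterByExpr with minimum count 10 and minimum total 15), which left 4118 genes. P-values were adjusted by Benjamini-Hochberg over these, and genes were called at an adjusted p under 0.05. The SE was derived from each log2 fold change and its F statistic (size of the change over root F). The fit was tested on simulated counts with known changes in some genes and none in most. Few genes of this table had fold changes near 0, so that simulation does not cover the scaling here. CPM use TMM-scaled totals, and a prior count of 2 was added for log2 CPM. Totals over selected genes are not library depths, so the depth is known only as these totals.

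Values per library were set by rule for the called members of each role group with the smallest p whose calls held in every leave-out, for a set of well-known cell cycle genes, for the 5 members with the most CPM, and for up to 4 genes per list; the other members shown in full were chosen after their values were seen. Single values of a few members, which are included in the counts, are not reported here. Coordinates and exon lengths come from GENCODE M21, promoters from RefSeq (GRCm38.p6), which matched 52 of 64 members. Replicates of a group differed by more than sampling noise (chi-square per degree of freedom 7.17 to 88.6), so none was counted as a duplicate. Alternatives were other scalings, no filter, DESeq2 1.42.0, limma-voom (limma 3.58.1), a replicate block, adjustment over 21951 annotated protein-coding genes, and each library left out.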

Additional observations from a re-analysis of the deposited data

How the results depend on the processing

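All 64 members kept the sign of their fold change under every alternative run, and the median stayed between -0.23 and -0.087. The 11 members whose calls held in every leave-out also kept them under the other scalings, tools and the block, and when all annotated genes were counted as tests. Members called higher numbered 22 to 24 under other scalings, no filter, DESeq2 and limma-voom. Members called lower numbered 9 with RLE size factors, 5 with upper-quartile scaling and 29 with scaling centred on the gap in fold changes, against 16 with TMM, and 11 with DESeq2. The share of calls that were higher was thus 71.9%, 82.8% and 43.1% of members' calls, against 59%, and 67.2%, 70.6% and 47.6% of all genes' calls, against 60.4%. Over all genes, 725 were lower under upper-quartile scaling and 1753 when the gap was centred, against 1111. Gap-centred scaling gave 3 lower calls in the S phase list, 1 in the mitosis list, 4 in the damage response list and 1 in the Rb, p53 and arrest list. With all annotated protein-coding genes counted as tests, 10 members were higher and 2 lower, and 630 and 296 of all genes. In the same order of lists, 0, 0, 6 and 7 genes were then higher, and the damage response list had 0 lower. With RLE size factors, upper-quartile and gap-centred scaling, the median log2 fold change over all tested genes moved by 0.044, 0.077 and -0.063. Why the scalings differ was not tested. The larger number of tests accounts by construction for the counts over all annotated genes.

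Leaving out one library at a time, members called higher ranged from 10 to 25 and lower from 2 to 20, and all genes from 730 to 1824 and from 351 to 1458. Higher calls ranged from 0 to 3 in the S phase list, 0 to 4 in the mitosis list, 5 to 10 in the damage response list and 8 to 11 in the Rb, p53 and arrest list. Lower calls ranged from 0 to 3, 0 to 1, 0 to 4 and 0 to 1 in these lists.

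Same-numbered libraries of the genotypes deviated together with correlations of 0.279, -0.281 and 0.18, so the numbers were not taken to pair mice. With the replicate number as a block, 23 members were higher and 14 lower, where Cdk7, Cenpw and E2f5 lost their lower calls and Cdkn1a gained one (log2 fold change -0.52, adjusted p 0.036 by edgeR).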
